A study of Mus musculus with 8 samples.

Results

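The genes of the oligodendrocyte lineage and of myelin were followed in hippocampal RNA of an Alzheimer's disease mouse model fed with or without rosmarinic acid (RA), a plant polyphenol. The members were 33 genes picked by name for their known place in the lineage, with earlier results of these data known. Every probe set (a group of short probes for 1 transcript) whose annotated symbol was exactly 1 of these genes was taken. Of the 33 genes, 31 had such a probe set, out of 18193 genes on the array, and they held 63 of the 45037 probe sets tested. Neu4, a sialidase gene, had none, and Trf, the gene of the iron carrier transferrin, was on a probe set shared with Srprb that was left out.

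All 8 arrays were from male 3 × Tg-AD mice, which carry APP Swe, tau P301L and presenilin 1 M146V, aged 10 months at sampling. The 4 control arrays (C1 to C4) came from mice given an AIN-93G diet without RA for 8 months, and the 4 RA arrays (R1 to R4) from mice given the diet with 0.5% RA for the same time. No mice without the transgenes were measured, so both groups carry the model's alleles, and the APP and tau transgenes of this model are known to be driven by a Thy1 sequence that is active in neurons. The study's methods name 4 mice for each group and also pooled total RNA, so p-values here measure the spread between arrays, which may be technical.

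Oligodendrocytes wrap axons of the central nervous system in myelin, a stack of membrane that speeds conduction and feeds the axon. They arise from precursor cells that keep dividing in the adult brain and are marked by the growth factor receptor gene Pdgfra. Precursors that leave the cycle pass through a stage marked by Gpr17, and the transcription factors of the Sox, Olig and Nkx2 families and then Myrf switch on the genes of compact myelin. In the hippocampus, myelin is dense in the fibre tracts at its border.

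Mature myelin genes were well measured on these arrays and precursor genes less so. The values are log2 summaries by FARMS, a method that draws a probe set to a constant when its probes share no signal, and a probe set with a standard deviation (SD) of at most 0.01 over the 8 arrays is called unmeasured. Of the 63 member probe sets, 45 (71.4%) were measured, against 8.34% of all probe sets, and 26 of the 33 genes had a measured probe set. All 15 genes of myelin structure and membrane were measured, as were 5 of 6 genes of myelin lipid, iron and small-molecule enzymes and 4 of 5 lineage transcription factors. Of 7 genes of precursors and newly forming cells, 2 were measured. The unmeasured genes were Cspg4, the proteoglycan of precursors, Tnr, an extracellular matrix gene, Bmp4, a growth factor gene, Enpp6, an early marker of forming oligodendrocytes, and Olig2, a factor that specifies the lineage. An unmeasured gene gives no comparison between groups, and its constant value does not show that the groups were alike. In whole tissue, fewer oligodendrocytes and less RNA per oligodendrocyte cannot be told apart.

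Probe sets of the myelin genes varied up to 3.54-fold between arrays, and that variation ran within both diet groups and hardly between them. Mbp, Mobp and Cldn11, genes of the myelin sheath, passed the rank product test as lower in the RA group, and the precursor gene Pdgfra and the transcription factor gene Olig1 passed it as higher. The rank product is the test named in the study's methods, and it ranks the 16 differences between RA and control arrays over all probe sets and calls a probe set where the estimated proportion of false positives is under 0.05. It called 2 member probe sets higher (3.17% of 63, against a percentage of 0.915 over all probe sets) and 3 lower (4.76%, against 0.577). Among measured probe sets alone, 4.44% of the members and 11.0% of all were called higher, and 6.67% and 6.92% were called lower. The members' share of calls was thus below or near that of other measured probe sets.

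Limma, which sets each difference against the spread within groups, called 0 of the 63 member probe sets and 0 of all 45037 after Benjamini-Hochberg adjustment. At an unadjusted p under 0.05, limma had 3 member probe sets, of which 1, Olig1, was measured, beside 10.1% of all probe sets and 9.66% of the measured ones. The adjusted p of the measured members ran from 0.379 to 0.999 in limma. In 0 of the 45 measured member probe sets did the 4 RA values all lie above or all below the 4 control values, beside 2.81% (above) and 3.01% (below) of all probe sets and 2.71% and 2.87% of the measured ones. The groups lay apart in 2 of the 18 unmeasured ones, Tnr and Olig2, whose log2 fold changes were -0.0008 and 0.0002. The RA mean was the higher one in 21 of the 26 measured genes (80.8%), as it was in 74.5% of all measured genes on the array. The median log2 fold change (RA minus control) was 0.10 over the measured members and 0.07 over all measured genes. The median range from the lowest to the highest array was 1.11 on the log2 scale over the members and 0.53 over all measured genes.

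**Figure D1:**
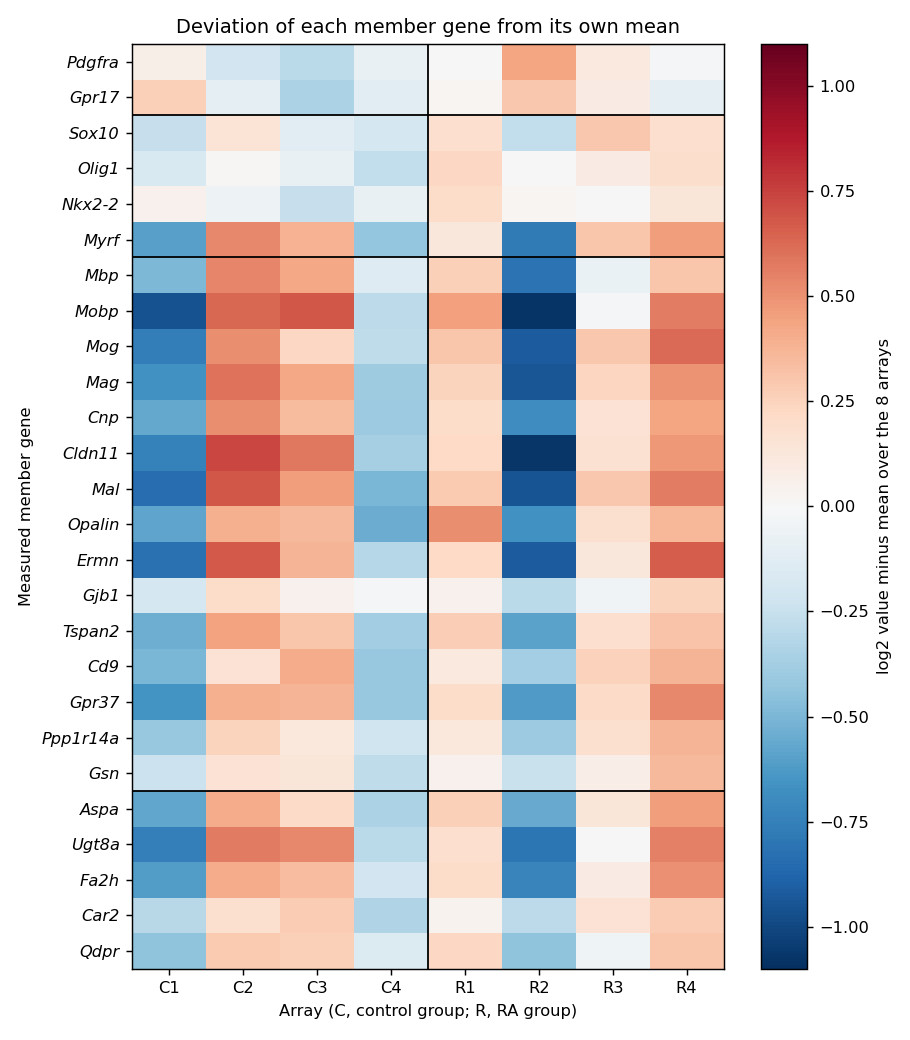
Log2 value of each measured member gene minus its own mean over the 8 arrays, by array (x axis, C for control and R for RA) and gene (y axis), with lines between the 4 gene lists and between the groups. The myelin genes other than Gjb1 have their 3 lowest values in C1, C4 and R2, which lie in both groups, while Pdgfra and Gpr17 are highest in R2.

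Mbp, the gene of myelin basic protein that holds the cytoplasmic faces of the membrane together, had log2 values of 11.90, 12.93, 12.82 and 12.25 in C1 to C4 and of 12.65, 11.58, 12.32 and 12.70 in R1 to R4. The lowest array was in the RA group and the next lowest in the control group, and the groups overlapped over most of their range. The log2 fold change was -0.16 (limma, 95% interval -0.98 to 0.65, adjusted p = 0.896). Mbp had 8 probe sets, of which 7 were measured, and the rank product called 1 of them lower, 1451961_a_at, with a proportion of false positives of 0.0338. Its log2 values were 8.51, 10.09, 9.89 and 8.82 in C1 to C4 and 9.54, 8.27, 9.34 and 9.68 in R1 to R4, with a log2 fold change of -0.12 (SE 0.484, limma adjusted p = 0.951). Another Mbp probe set, 1425264_s_at, ran the opposite way over the arrays, with 8.21, 7.97, 7.91 and 8.21 in the control group and 8.02, 8.20, 8.08 and 8.02 in the RA group. That probe set was highest in C1, C4 and R2, where the other measured probe sets of the gene were lowest.

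Mobp encodes a small basic protein of compact myelin. Its probe set with the highest mean, 1433785_at, had log2 values of 8.94, 10.53, 10.58 and 9.61 in C1 to C4 and of 10.35, 8.82, 9.88 and 10.46 in R1 to R4. This is a 3.39-fold range across arrays, with a log2 fold change between groups of -0.04 (limma, 95% interval -1.29 to 1.21, adjusted p = 0.988). The Mobp probe set that the rank product called lower was 1421010_at, at a proportion of false positives of 0.0337. It read 8.20, 9.92, 9.84 and 8.94 in C1 to C4 and 9.58, 8.09, 9.14 and 9.68 in R1 to R4 on the log2 scale, and its log2 fold change was -0.11 (SE 0.522, limma adjusted p = 0.961). Mobp had 5 probe sets, of which 4 were measured, and the rank product called 1 of them. The remaining measured ones, 1436263_at and 1450088_a_at, had log2 fold changes of 0.008 and -0.012. All 4 were lowest in R2 and next lowest in C1.

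Cldn11, the claudin of the tight junctions between myelin layers, had a 3.48-fold range across arrays, beside 3.54-fold and 3.53-fold in the called probe sets of Mobp and Mbp. Its log2 values were 7.60, 9.08, 8.93 and 7.98 in C1 to C4 and 8.57, 7.28, 8.52 and 8.82 in R1 to R4. It was called lower by the rank product at a proportion of false positives of 0.0383, with a log2 fold change of -0.10 (limma, 95% interval -1.25 to 1.05, adjusted p = 0.959). The calls of Mbp, Mobp and Cldn11 were lost when C2, C3 or R2 was left out, with proportions of 0.354 to 0.712 for the same Mbp probe set. The rank product ranks differences without regard to the spread within groups, so a gene with wide ranges in both groups can have ranks far from the middle in both directions.

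The other 12 measured genes of myelin structure and membrane moved with these, and 11 of the 15 in all had a higher RA mean. Opalin, a membrane protein of myelin in the central nervous system, had the largest log2 fold change of the list, at 0.19 (SE 0.361, limma adjusted p = 0.881). Its log2 values were 6.71, 7.68, 7.64 and 6.75 in C1 to C4 and 7.80, 6.62, 7.46 and 7.65 in R1 to R4. Cd9, a tetraspanin gene, had 7.57, 8.23, 8.48 and 7.65 in C1 to C4 and 8.17, 7.69, 8.32 and 8.44 in R1 to R4, with a log2 fold change of 0.18 (SE 0.264, limma adjusted p = 0.845). In both genes the control and RA values overlapped. The remaining genes were Mog and Mag, which encode glycoproteins of the outer and inner face of the sheath, Cnp, a phosphodiesterase of the cytoplasmic channels, Mal, a gene of lipid raft sorting, and Ermn, a cytoskeletal gene of the outer tongue. Gjb1, a connexin gene, Tspan2, another tetraspanin gene, Gpr37, a receptor gene, Ppp1r14a, a phosphatase inhibitor gene, and Gsn, the actin-severing gelsolin, completed the list. With 1 probe set for each gene, the ranges across arrays in this list ran from 1.46-fold in Gjb1 to 3.48-fold in Cldn11, and none of these 10 genes was called in either direction by the rank product.

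Of the genes of myelin lipid and small-molecule metabolism, 5 were measured and 4 had a higher RA mean. Aspa, which cleaves N-acetylaspartate to give acetate for lipid synthesis, had log2 values of 6.31, 7.29, 7.09 and 6.53 in C1 to C4 and of 7.14, 6.32, 7.01 and 7.34 in R1 to R4. Its log2 fold change was 0.15 (SE 0.307, limma adjusted p = 0.895). Car2, a carbonic anhydrase gene of glia, had 9.77, 10.26, 10.36 and 9.75 in C1 to C4 and 10.12, 9.79, 10.24 and 10.36 in R1 to R4, with a log2 fold change of 0.09 (SE 0.192, limma adjusted p = 0.896). The 3 lowest values of both genes were in C1, C4 and R2, so the groups overlapped. Ugt8a and Fa2h, which make the galactolipids of myelin and their hydroxylated fatty acids, and Qdpr, which recycles tetrahydrobiopterin, had log2 fold changes of -0.03, 0.04 and 0.02. None of the enzyme genes was called by the rank product.

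**Figure D2:**
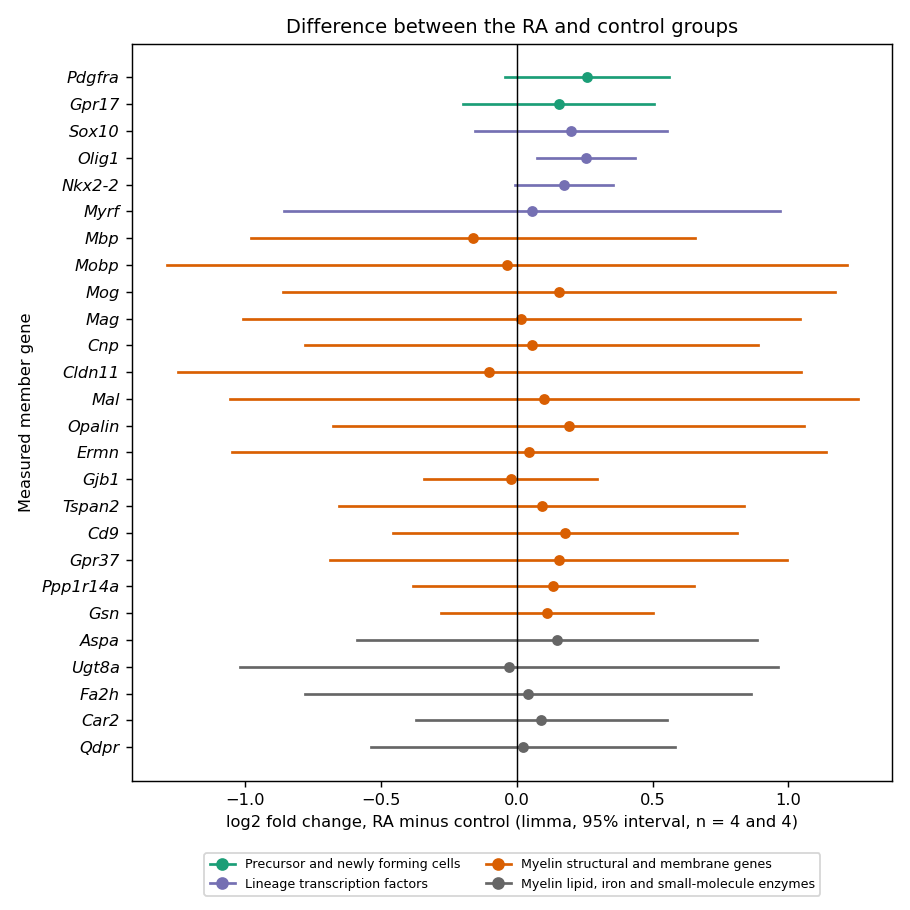
Log2 fold change (RA minus control, x axis) of each measured member gene (y axis), with the limma 95% interval as a bar, n = 4 and 4 arrays, coloured by gene list. The intervals of the 20 myelin genes and of Myrf are wide and span 0, and that of Olig1, from 0.08 to 0.44, is the only interval that lies wholly above 0.

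Olig1, a basic helix-loop-helix factor needed for maturation of oligodendrocytes, was the member with the clearest difference between groups. Its log2 values were 9.21, 9.38, 9.28 and 9.10 in C1 to C4 and 9.60, 9.37, 9.46 and 9.56 in R1 to R4, so the groups overlapped only where R2 lay just under C2. The log2 fold change was 0.26 (1.19-fold, SE 0.0753, limma 95% interval 0.08 to 0.44), with an unadjusted limma p of 0.0128 and an adjusted limma p of 0.379, and the rank product called it higher at a proportion of false positives of 0.0342. Olig1 kept that call without any single control array and lost it without any single RA array, with proportions of 0.104 to 0.136. Higher calls over all probe sets also dropped there, from 412 to 13, 44, 37 and 21 without R1, R2, R3 and R4. Of its sum of squares over the arrays, 63.9% lay between the groups, against a median of 0.989% over the 20 myelin genes and 9.62% over all measured genes. This sets the highest value of the measured members against medians. An unadjusted limma p under 0.05 was found in 9.66% of all measured probe sets, so such a p is common on these arrays.

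Sox10, the factor that directs the lineage from precursor to myelin, had log2 values of 7.30, 7.70, 7.44 and 7.36 in C1 to C4 and of 7.74, 7.28, 7.85 and 7.73 in R1 to R4. All RA arrays but R2 lay above all control arrays. The log2 fold change was 0.20 (SE 0.147, limma adjusted p = 0.679) and the rank product did not call it. Nkx2-2, a homeobox factor that acts as precursors differentiate, had a log2 fold change of 0.17 (SE 0.0754, limma adjusted p = 0.506). Myrf, the factor that turns on myelin genes in the maturing cell, had 6.55, 7.67, 7.53 and 6.71 in C1 to C4 and 7.27, 6.37, 7.45 and 7.60 in R1 to R4, with a log2 fold change of 0.06 (SE 0.380, limma adjusted p = 0.974). Myrf had its 3 lowest values in C1, C4 and R2, as did Sox10 and most of the myelin genes.

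Pdgfra, the platelet-derived growth factor receptor of precursors, had log2 values of 7.93, 7.65, 7.56 and 7.78 in C1 to C4 and of 7.86, 8.29, 7.97 and 7.84 in R1 to R4. R2 was the highest array, and C1 lay among the RA values. The log2 fold change was 0.26 (1.2-fold, limma 95% interval -0.04 to 0.56, adjusted p = 0.539), and the rank product called it higher at a proportion of false positives of 0.0405. The call was kept when C1 or C4 was left out and lost when any other array was left out, up to a proportion of 0.194 without R2. Pdgfra is also expressed by fibroblasts of the meninges and vessels. The mean of 9 measured meningeal fibroblast genes, each set to its own mean over the arrays, was highest in R2 too. It was 0.64 there on the log2 scale, against -0.26 to 0.12 in the other arrays. Of the 9 genes, 5 were called higher by the rank product, beside 11.0% of all measured probe sets. The part of these fibroblasts in the Pdgfra value was not tested. Gpr17, a receptor gene of cells between precursor and mature oligodendrocyte, had 6.87, 6.50, 6.25 and 6.49 in C1 to C4 and 6.62, 6.90, 6.69 and 6.50 in R1 to R4. It was highest in R2, like Pdgfra, and then in C1, with a log2 fold change of 0.15 (SE 0.146, limma adjusted p = 0.751) and no call.

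The 20 measured myelin genes varied together from array to array. C1, C4 and R2 were the 3 lowest arrays in 19 of the 20 genes, the exception being Gjb1, and in 37 of their 39 measured probe sets. R2 was the lowest array in 14 genes, C1 in 4 and C4 in 2, while C2 was the highest in 8, R4 in 8, C3 in 3 and R1 in 1. With each gene set to its own mean over the 8 arrays, the average of the 20 genes was -0.58, 0.44, 0.34 and -0.32 in C1 to C4 and 0.22, -0.67, 0.13 and 0.44 in R1 to R4 on the log2 scale. The control average was -0.03 ± 0.498 (SD, n = 4) and the RA average 0.03 ± 0.484 (SD, n = 4), so the difference of 0.06 was far smaller than the spread within each group. Leaving out single arrays moved that difference between -0.13 and 0.29. The same average over the 6 precursor and lineage genes was -0.11, 0.05, -0.12 and -0.19 in C1 to C4 and 0.13, -0.05, 0.15 and 0.14 in R1 to R4. The difference was 0.18 and stayed between 0.15 and 0.23 without any single array. This average pools genes that ran in opposite directions, which offset each other. Pdgfra and Gpr17 averaged 0.17 in C1 and 0.36 in R2, and the 4 measured lineage factors -0.24 and -0.26. The RA mean was also the higher one in 74.5% of all measured genes.

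Pearson's r between pairs of the 20 myelin genes over the 8 arrays had a median of 0.958, from 0.737 to 0.998, and 87.4% of the 190 pairs were over 0.9. Over all pairs of the 2496 measured genes the median was 0.05 and 3.06% were over 0.9. These correlations are a description, since all genes share the same 8 arrays and dissections. The median over myelin genes was 0.969 when deviations from the group means were used, and 0.899 without R2 and C1, the 2 arrays farthest from the median of Mbp. Among the 6 precursor and lineage genes the median r was 0.369, from -0.696 to 0.881. Pdgfra and Gpr17 ran together and against the myelin genes, and Sox10 and Myrf ran with the myelin genes.

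**Figure D3:**
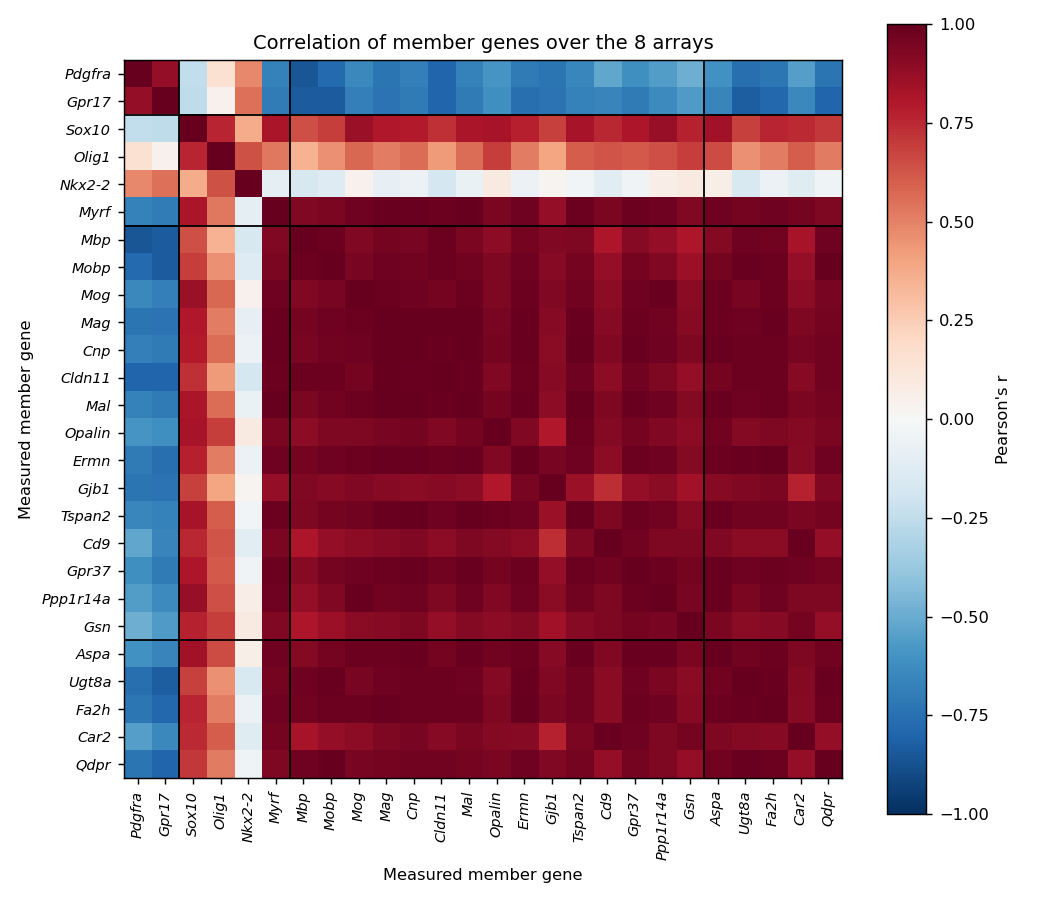
Pearson's r over the 8 arrays between each pair of measured member genes, both axes in the order of the gene lists, with black lines between lists. The 20 myelin genes form a block with r from 0.737 to 0.998 that Myrf joins, and the rows of Pdgfra and Gpr17 are negative against that block.

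The 6 precursor and lineage genes were each set against Mbp over the 8 arrays, with exact permutation tests (two-sided, 40320 pairings) and Benjamini-Hochberg adjustment over the 6 relations. Myrf rose with Mbp, with r = 0.922 (exact p = 0.00119, adjusted 0.00714) and Spearman's rho = 0.952 (exact p = 0.00114, adjusted 0.00684). Pdgfra fell as Mbp rose, with r = -0.858 (exact p = 0.00454, adjusted 0.0136) and rho = -0.786 (exact p = 0.0279, adjusted 0.0837). Gpr17 ran the same way, with r = -0.835 (exact p = 0.0106, adjusted 0.0212) and rho = -0.714 (exact p = 0.0576, adjusted 0.115). Within groups, on deviations from the group means, r was -0.971 for Pdgfra, -0.842 for Gpr17 and 0.950 for Myrf. In the 6 arrays without R2 and C1, r was -0.668 for Pdgfra (exact permutation p = 0.146), -0.485 for Gpr17 (exact permutation p = 0.364) and 0.748 for Myrf (exact permutation p = 0.0681). The directions stayed, and none of these passed 0.05 over the 6 arrays, which span less of the range of Mbp. Over the 2470 measured genes that are not members, 8.42% had an r over 0.9 with the average of the 20 myelin genes. An r under -0.9 was found in 4.41% of them. These shares are for the average and not for Mbp. The r of Pdgfra and of Gpr17 with Mbp did not reach -0.9, and the share of genes as negative as these was not counted. The relations were chosen with earlier results of these data known. The part of tissue differences shared by all genes of an array was not tested, so the p-values do not show a relation particular to these genes.

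The other 3 factors had no relation to Mbp that passed the test. Sox10 had r = 0.643 (exact p = 0.0860, adjusted 0.129) and rho = 0.548 (exact p = 0.171, adjusted 0.257). Olig1 had r = 0.351 (exact p = 0.390, adjusted 0.468) and rho = 0.381 (exact p = 0.360, adjusted 0.432). Within groups, r was 0.841 for Olig1, 0.841 for Sox10 and -0.056 for Nkx2-2. In the plot of Olig1 against Mbp, each RA array lay above the control arrays of like Mbp level. Nkx2-2 had r = -0.164 (exact p = 0.698, adjusted 0.698) and rho = -0.238 (exact p = 0.582, adjusted 0.582). Without R2 and C1, r was 0.117 for Sox10, 0.327 for Olig1 and -0.106 for Nkx2-2.

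**Figure D4:**
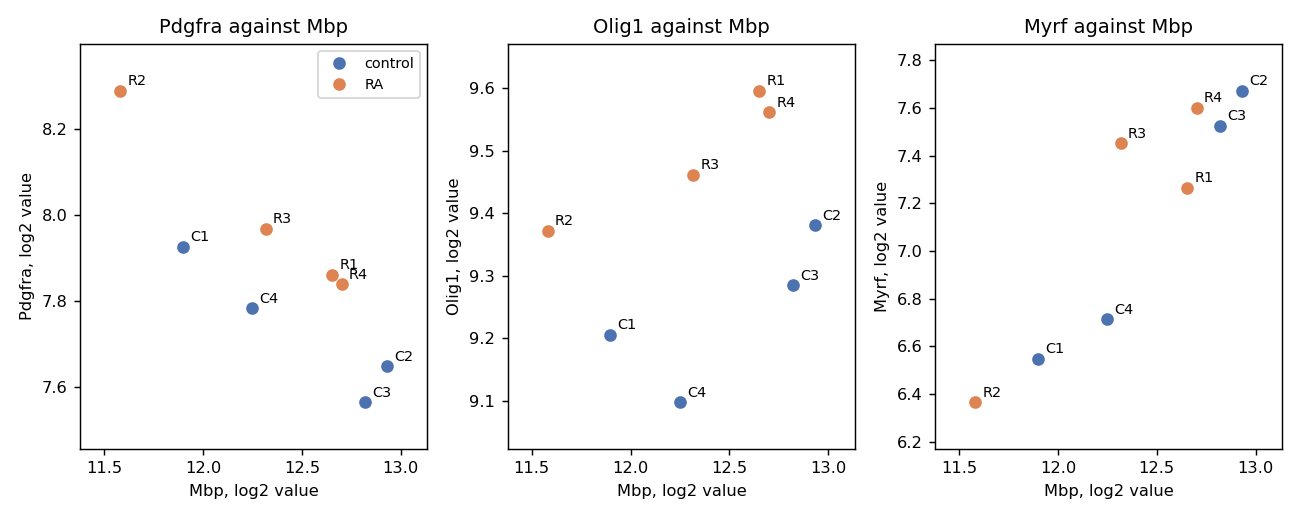
Log2 values of Pdgfra, Olig1 and Myrf (y axes, 1 panel each) against the log2 value of Mbp (x axes) in the 4 control and 4 RA arrays, each point labelled with its array. Pdgfra falls from 8.29 in R2, the array with the lowest Mbp, Olig1 lies higher in the RA arrays at a like Mbp level, and Myrf rises with Mbp over both groups.

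Since the myelin genes moved together, the promoters of the members were searched for the short motifs of factors known to act on myelin genes. Sequences were taken from RefSeq (mouse build GRCm38.p6), 250 bases before to 50 bases after the annotated start, and 25 of the member genes had such a window. The 25 did not include Mbp and did include genes outside the measured myelin genes, such as the unmeasured Tnr. The motifs, on either strand, were ACAAAG, read as CTTTGT on the opposite strand and bound by Sox factors, CAGCTG, an E-box of the kind that Olig factors bind, and CTGGCAC, read as GTGCCAG on the opposite strand, the core of the Myrf motif. The Sox motif was in 7 of the 25 members (28.0%), beside 21.0% of all genes with a window. The E-box was in 4 (16.0%), beside 18.3%, and the Myrf motif in 3 (12%), beside 5.73%. The 3 members with the Myrf motif, Mag, Cnp and Opalin, and Mobp, whose window held 6 Sox motifs, are shown 5′ to 3′ in the direction of the gene, with the motifs in capitals and without overlap between them.
Mobp, chr9:120149492-120149791, plus strand: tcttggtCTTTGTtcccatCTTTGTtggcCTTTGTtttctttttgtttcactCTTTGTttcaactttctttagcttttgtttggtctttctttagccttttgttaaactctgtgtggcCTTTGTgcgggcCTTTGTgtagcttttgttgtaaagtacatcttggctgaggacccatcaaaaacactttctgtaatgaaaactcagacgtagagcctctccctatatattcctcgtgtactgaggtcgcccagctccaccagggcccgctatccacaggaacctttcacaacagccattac
Mag, chr7:30914814-30915113, minus strand: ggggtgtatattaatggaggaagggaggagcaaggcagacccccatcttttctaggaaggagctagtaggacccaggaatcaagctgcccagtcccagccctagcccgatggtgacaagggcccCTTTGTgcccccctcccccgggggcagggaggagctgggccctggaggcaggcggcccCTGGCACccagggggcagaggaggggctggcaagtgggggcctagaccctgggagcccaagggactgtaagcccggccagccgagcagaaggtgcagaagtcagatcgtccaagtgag
Cnp, chr11:100574689-100574988, plus strand: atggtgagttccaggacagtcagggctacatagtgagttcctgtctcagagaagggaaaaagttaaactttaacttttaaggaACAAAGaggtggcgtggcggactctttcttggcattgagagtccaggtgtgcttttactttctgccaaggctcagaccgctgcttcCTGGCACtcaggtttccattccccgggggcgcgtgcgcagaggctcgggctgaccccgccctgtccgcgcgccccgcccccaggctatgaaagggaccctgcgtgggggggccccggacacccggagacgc
Opalin, chr19:41077064-41077363, minus strand: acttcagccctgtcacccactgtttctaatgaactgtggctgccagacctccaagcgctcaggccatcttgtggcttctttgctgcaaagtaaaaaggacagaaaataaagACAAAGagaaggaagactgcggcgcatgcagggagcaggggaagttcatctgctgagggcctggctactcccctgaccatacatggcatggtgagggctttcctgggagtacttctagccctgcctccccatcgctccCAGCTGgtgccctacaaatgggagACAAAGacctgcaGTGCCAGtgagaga
The Mag window is the first of 3 listed for that gene. In the windows of Mag and Cnp, a Sox motif and a Myrf motif each occurred once, and the Opalin window held 2 Sox motifs, an E-box and a Myrf motif. The Sox motif was also in the windows of Tnr, Gjb1 and Tspan2, and the E-box in those of Cd9, Gsn and Aspa. The array profiles of Mag, Cnp, Opalin and Mobp all had C1, C4 and R2 as their lowest arrays. This held for 19 of the 20 myelin genes, so it was not particular to the genes shown. The exception, Gjb1, had the Sox motif. A match is a description of these letters and not a bound site.

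On average, further genes of mature oligodendrocytes moved in the same way. Of 35 further genes of mature oligodendrocytes, 20 were measured, 17 with a higher RA mean (beside 74.5% of all measured genes) and 3 with a lower one. Their average, set to each gene's mean, was -0.36, 0.25, 0.14 and -0.22 in C1 to C4 and 0.14, -0.34, 0.08 and 0.30 in R1 to R4, again lowest in C1, R2 and C4. Over 1 probe set for each gene, the rank product called 2 of them higher and 0 lower, beside 11.0% and 6.92% of all measured probe sets. Apod, an apolipoprotein gene that meningeal and vascular cells also express, had a log2 fold change of 0.34 (SE 0.198, limma adjusted p = 0.597). Tcf7l2, a factor of differentiating oligodendrocytes that thalamic neurons also express, had 6.16, 5.85, 5.90 and 6.42 in C1 to C4 and 6.63, 7.03, 6.004 and 5.93 in R1 to R4, with a log2 fold change of 0.32 (SE 0.281, limma adjusted p = 0.731). Neither Apod nor Tcf7l2 had the profile of the myelin genes, as R2 was among their higher arrays. Grm3 did not have it either, with its highest log2 value in C1 (9.03) and its lowest in C3 (8.67).

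Of 15 further precursor genes, 4 were measured, Ptprz1, Ncan, Cacng4 and Ednrb, all with a higher RA mean. The RA mean was also the higher one in 74.5% of all measured genes. Vcan, Lhfpl3, C1ql1, Sox6 and Matn4 were among the unmeasured ones, so the average rests on few genes of the list. Their average was 0.14, -0.19, -0.21 and 0.01 in C1 to C4 and 0.01, 0.30, 0.03 and -0.08 in R1 to R4, highest in R2, as were Pdgfra and Gpr17. The rank product called 1 of the 4 measured genes higher, beside 11.0% of all measured probe sets. This was Ednrb, an endothelin receptor gene that astrocytes also express. Ednrb had log2 values of 7.25, 7.14, 7.25 and 7.30 in C1 to C4 and of 7.38, 7.61, 7.42 and 7.36 in R1 to R4. The groups did not overlap, with a log2 fold change of 0.21 (SE 0.0643, limma adjusted p = 0.398) and a proportion of false positives of 0.0362.

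Markers of other cells and regions also differed between arrays. In these and the following marker lists, calls were counted over 1 probe set for each gene. Counted so, the 20 myelin genes had 0 higher calls and 1 lower call, Cldn11. Over all measured probe sets, 11.0% were called higher and 6.92% lower. Of 12 genes of pyramidal and granule neurons, the cells that define the hippocampus, 8 were measured, and their average ran from -0.31 to 0.25 over the control arrays and from -0.44 to 0.19 over the RA arrays, lowest in R2 and C1 as were the myelin genes, with 2 called lower. Of 12 genes of thalamus, 10 were measured, at -0.34 to 0.16 in C1 to C4 and -0.22 to 0.43 in R1 to R4, and 6 were called higher by the rank product. Tcf7l2 is in this list and in that of further mature oligodendrocyte genes, so its call is counted in both. Of 10 genes of striatum, 5 were measured, at -0.41 to 0.48 in C1 to C4 and -0.24 to 0.35 in R1 to R4, with the highest values in C1 and R2 and 1 called in each direction. Of 12 choroid plexus genes, 11 were measured, at -0.95 to 1.62 in C1 to C4 and -0.99 to 1.35 in R1 to R4, and all 11 were called higher. Their profile differed from that of the myelin genes, since C2, at -0.92, was among the low arrays. The part of neighbouring tissue in the myelin values was not tested.

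The averages of astrocyte, microglial, endothelial and interneuron markers varied less between arrays than these. Of 12 astrocyte genes, 9 were measured, and their average was -0.09 to 0.02 in C1 to C4 and 0.04 to 0.08 in R1 to R4, with 2 called higher. Of 12 microglial genes, 7 were measured, at -0.29 to 0.08 in C1 to C4 and -0.07 to 0.28 in R1 to R4, with 0 called by the rank product. Of 10 endothelial genes, 3 were measured, at -0.19 to 0.05 in C1 to C4 and -0.08 to 0.38 in R1 to R4, highest in R2 and with 1 called higher. Of 10 genes of GABAergic interneurons, 6 were measured, at -0.21 to 0.03 in C1 to C4 and 0.04 to 0.11 in R1 to R4, with 1 called higher. The astrocyte and interneuron averages did not overlap between groups, unlike that of the myelin genes.

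**Figure D5:**
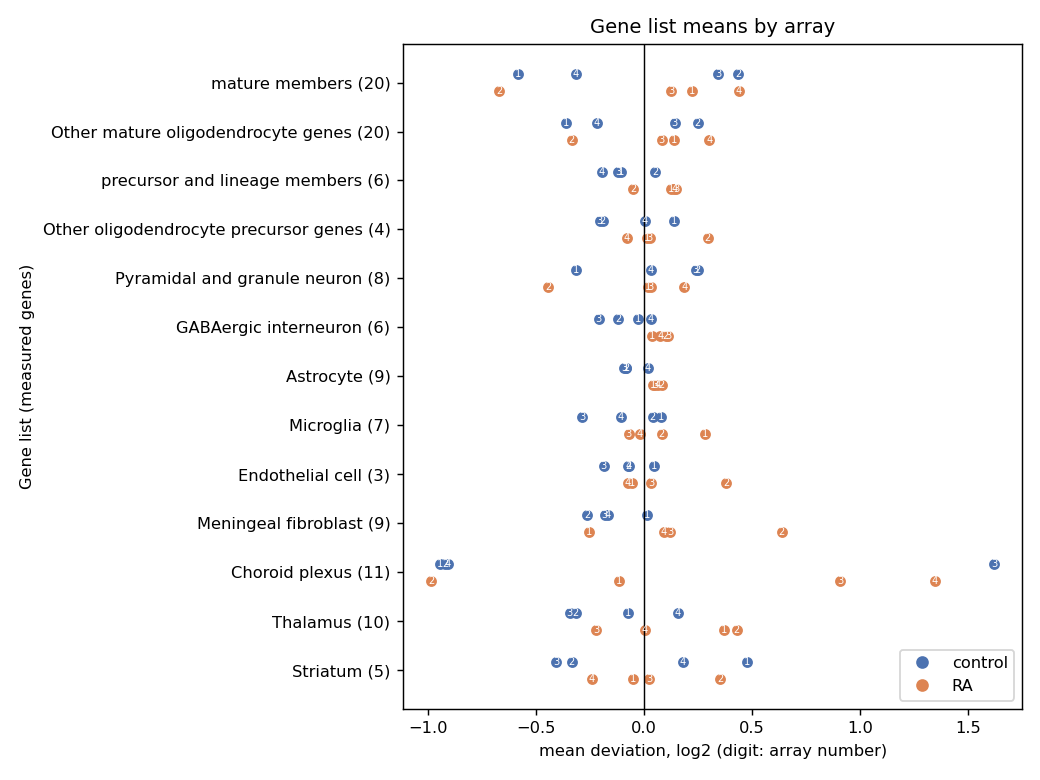
Average of the measured genes of each list, each gene set to its own mean over the 8 arrays (x axis, log2), for the member groups and the marker lists (y axis, number of measured genes in brackets), with control arrays above RA arrays and the array number in each point. The averages of the 20 myelin genes spread from -0.67 in R2 to 0.44 in R4, with both groups over the whole range.

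The genes most like the myelin genes were sought over all 2470 measured genes that are not members, by Pearson's r over the 8 arrays with the average of the 20 myelin genes. The 10 highest were Slc44a1, a choline transporter gene (0.999), Tmem88b (0.996), Gna12 (0.992), Bcas1 (0.992), Serpinb1a (0.991), Pfn1 (0.990), Ccp110 (0.989), Arrdc3 (0.989), Septin4 (0.985) and Cryab (0.985). Of these, Tmem88b, Bcas1, Serpinb1a and Cryab were in the list of further oligodendrocyte genes. Slc44a1 read 7.32, 8.27, 8.16 and 7.58 in C1 to C4 and 8.04, 7.22, 8.01 and 8.25 in R1 to R4 on the log2 scale. In all, 208 genes (8.42%) had an r over 0.9 and 109 (4.41%) an r under -0.9. Each myelin gene itself had an r of 0.911 to 0.996 with the average of the other myelin genes.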

How the data were processed

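Hippocampal RNA was measured on 8 Affymetrix mouse genome arrays, 4 for each group, with groups taken from the sample labels. The authors summarised the probes with FARMS in R, and the deposited values are log2 summaries for each probe set. How the arrays were scaled to each other is not stated in the sources used here. The manufacturer's 64 control probe sets were dropped and no further scaling was made. Array medians were 5.829 to 5.831 for C1 to C4 and 5.833 to 5.835 for R1 to R4, and arrays correlated at 0.989 to 0.998. The number of arrays limits the precision.

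Symbols came from the platform annotation, updated to a RefSeq table of GRCm38.p6: 34741 probe sets through the gene number and 204 as listed. Probe sets naming several genes (932) or none (9160) were tested but not named. A gene is represented by its measured probe set with the highest mean. Levels were not compared between probe sets.

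The rank product of the study's methods was run with 100 permutations within arrays in Python 3.11.15 (numpy 2.4.6), and limma 3.58.1 in R 4.3.3 gave fold changes, standard errors and adjusted p-values over all probe sets. Both were tested on simulated data. The members, the lists and the tests were chosen with earlier results of these data known. Per-array values were given for called members, Mbp and, for each member list, the 2 measured genes with the largest fold change. Values of Myrf were added after they were seen. Alternatives were the rank sum, the methods' t-test, other scalings, filters and thresholds, a replicate block, array weights, a trend with robust moderation, other choices of probe set and leaving out arrays.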

Additional observations from a re-analysis of the deposited data

Results flagged for a closer look

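In 56 groups of 4 arrays, taken over the 26 measured genes and both averages of member genes, a gap test for a single array far from the others marked 2 arrays, beside the 1 in 20 groups that chance marks. Tspan2, the tetraspanin gene, read 7.879 in R2 against 8.66 to 8.79 in the other RA arrays, a gap of 0.856 of the group's range. The control group held values as low, with 7.93 in C1 and 8.09 in C4. The average of the precursor and lineage genes was -0.05 in R2 against 0.13 to 0.15 in the other RA arrays, a gap of 0.883 of the range. Both marks fell on R2, the array with the lowest Mbp.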

How the results depend on the processing

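Of 283 alternative values, 230 kept their direction and their side of the threshold or moved within the spread between arrays. The 2 higher and 3 lower calls became 0 and 0 with limma after Benjamini-Hochberg adjustment, the rank sum, the methods' t-test after Benjamini-Hochberg adjustment, a filter on the mean, a filter on SD above 0.01 or a threshold of 0.01. Without R2 and C1, the arrays farthest from the median of Mbp and chosen after seeing the data, they were also 0 and 0. The methods' t-test, unadjusted, gave 2 higher calls and 1 lower call, the latter the unmeasured Tnr. The filters change the probe sets among which differences are ranked. Leaving out single arrays gave 0 to 6 higher calls, with 4, 6 and 5 without C1, C2 and C3, where all probe sets had 956, 227 and 404 in place of 412. It gave 0 higher calls without any single RA array, where all probe sets had 13 to 44. Lower calls ran from 0 to 15, with 15 without R4, 9 without C1, 8 without R1, 5 without R3 and 0 without C2, C3 or R2, while over all probe sets lower calls ran from 129 to 317 in these runs.

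Whether array numbers pair the arrays is not stated in the sources used here. The deviations of same-numbered arrays correlated at -0.122, -0.328, 0.448 and -0.393, which are too few values to decide it. With the replicate number as a block, the rank product gave 1 higher call, Mog, and 1 lower call, Mobp.

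Of 11 genes with per-array values by rule, 0 passed the adjusted p in limma. With quantile normalization or array medians subtracted it was 1 in each case, Olig1, at 0.25 (limma adjusted p = 0.0276) and 0.25 (limma adjusted p = 0.0131), and over the other alternatives no such gene passed. Those scalings shift the near-constant values of unmeasured probe sets, and limma then called 28543 and 41443 of all probe sets, 251 and 350 of them among the 3758 measured ones. With array weights, the log2 fold change of Mobp turned from -0.04 to 0.17 and that of Cldn11 from -0.101 to 0.046. Without single arrays it ran from -0.363 to 0.315 in Mobp, -0.365 to 0.238 in Cldn11, -0.354 to 0.082 in Mbp, -0.019 to 0.358 in Aspa and -0.004 to 0.202 in Car2. The median fold change of the members ran from -0.07 to 0.30. The cause of these turns was not tested.

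The median r between members, 0.919, was 0.818 with the probe set of highest mean whether measured or not, 0.810 by Spearman, 0.936 on deviations from group means, 0.821 without R2 and C1, and 0.897 to 0.936 without single arrays.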
